A study of Mus musculus with 6 samples.

Results

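The 33 genes described here are genes of endothelium, the cell layer that lines blood vessels, measured in a preparation of vascular smooth muscle cells from which endothelium had been depleted. The genes were taken by symbol from a list of 33, and all 33 are among the 32179 genes of the table. Their summed level stayed between 1.14 and 1.88 per mille of all normalised counts in each library. The adhesion molecule gene Pecam1, whose product CD31 was the target of the depletion, was at 35 to 99, against 3883 to 4940 for the smooth muscle myosin gene Myh11. None of the 28 with enough reads to test passed the test between groups, where 0% of all tested genes did. All 3 KO libraries lay above all 3 controls in 1 of the 28, Clec14a, against 2.69% of all tested genes.

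Cells came from skeletal muscle of male C57BL6J mice, 8 to 24 weeks old, that carried floxed Gprc5c and the mTmG reporter, which marks recombined cells with EGFP. After digestion of the muscle, magnetic beads took out cells that bound antibodies to CD31, CD45 or Ter119, and flow cytometry then collected living cells with EGFP on 1 of 2 sorter models, which one for each library not being given. Controls (3 libraries, genotype label wild type) and iSM-G5C-KO mice (3 libraries, called KO, with the orphan receptor GPRC5C depleted in smooth muscle cells) were both tamoxifen-induced. Neither the promoter that drives Cre nor the number of animals behind a group is stated, so p-values measure only the spread between these libraries.

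Each library held an estimated 1479069 to 2935114 reads, and control library 3 had 29707 genes above 0 against 20481 to 21179 in the others. Gprc5c was at 428, 532 and 497 in control libraries 1, 2 and 3 and at 328, 305 and 360 in the KO ones, 68.2% of the control mean, and did not pass limma's test (adjusted p = 0.999, and adjusted p = 0.142 with the replicate number as a block). Markers of the labelled cell type were present, beside those of other cell types given below. Acta2, the smooth muscle actin gene, was at 995 to 1260 and Tagln, for the actin-binding protein transgelin, at 709 to 858.

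Endothelial cells hold one another through cadherin and claudin junctions, sense flow and ligands through receptors such as TIE2 and endoglin, and are specified by ETS factors (ERG, FLI1) together with SOX factors of the F group (SOX7, SOX17, SOX18). Capillary endothelium of muscle also takes up fatty acids through CD36 and FABP4. Mural cells, the smooth muscle cells and pericytes, wrap this layer, and several of the genes (Esam, Eng, Aqp1, Cd36) are also known from mural cells, fat cells or blood cells, as Cd34 is from fibroblasts.

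Promoters of 4 members are shown because the list holds both the ETS and SOX factors and genes with matches to their motifs. They are, in GRCm38.p6 from RefSeq, chr2:32646345-32646644 on the plus strand for Eng, chr3:137340828-137341127 (plus) for Emcn, chr4:94739039-94739338 (plus) for Tek and chr12:58269209-58269508 (minus) for Clec14a. Each runs 5′ to 3′ from 250 bases before to 50 bases after the annotated start, and capitals mark the ETS letters AGGAAG or the SOX letters AACAAT on either strand (CTTCCT and ATTGTT on the printed one).
Eng: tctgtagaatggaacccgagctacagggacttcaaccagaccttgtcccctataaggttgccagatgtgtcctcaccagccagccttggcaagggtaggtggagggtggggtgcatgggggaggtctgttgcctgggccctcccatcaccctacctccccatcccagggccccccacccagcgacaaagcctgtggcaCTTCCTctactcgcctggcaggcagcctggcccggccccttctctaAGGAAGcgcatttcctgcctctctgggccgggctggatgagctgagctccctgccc
Emcn: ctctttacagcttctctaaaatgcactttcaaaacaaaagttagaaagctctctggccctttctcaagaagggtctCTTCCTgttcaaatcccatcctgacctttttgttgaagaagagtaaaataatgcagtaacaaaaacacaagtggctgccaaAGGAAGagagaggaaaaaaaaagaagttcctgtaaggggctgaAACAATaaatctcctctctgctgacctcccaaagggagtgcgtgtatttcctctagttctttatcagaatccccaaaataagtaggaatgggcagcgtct
Tek: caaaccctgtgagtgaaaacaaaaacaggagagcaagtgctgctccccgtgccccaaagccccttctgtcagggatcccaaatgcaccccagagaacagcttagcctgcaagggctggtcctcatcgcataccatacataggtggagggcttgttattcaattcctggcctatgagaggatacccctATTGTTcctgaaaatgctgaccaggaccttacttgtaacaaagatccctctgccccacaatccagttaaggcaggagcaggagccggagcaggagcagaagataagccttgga
Clec14a: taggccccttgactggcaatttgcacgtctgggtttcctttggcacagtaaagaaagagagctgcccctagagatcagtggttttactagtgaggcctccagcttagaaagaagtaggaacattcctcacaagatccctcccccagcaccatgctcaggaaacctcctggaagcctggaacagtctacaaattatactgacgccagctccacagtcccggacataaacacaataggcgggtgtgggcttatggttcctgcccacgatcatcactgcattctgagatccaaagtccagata

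Eng held 2 ETS matches, Emcn held 2 ETS matches and 1 SOX match, Tek held 1 SOX match, and Clec14a held neither. Of the 33 genes, 16 are in the promoter table, with 22 promoters. The ETS letters were in 12 of the 22 (54.5%), against 35.4% of all 32851 promoters of that length, and the SOX letters in 5 (22.7%), against 10.7%. A match describes letters and not a bound site.

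Levels between genes were compared per kilobase of exon. The 33 genes spanned 0.571 normalised counts per kb for Tal1, a haematopoietic and endothelial transcription factor, to 189 for Cd36, the fatty acid translocase, with a median of 6.62. Over 12725 genes with a mean of at least 10 and a known length the median was 21.02, over 12 contractile genes 249.4 and over 10 pericyte genes 293. The 7 highest members per kb were Cd36, Esam (132), Aqp1 (127), Eng (73.2), Fabp4 (45.4), Cd93 (33.6) and Cd34 (22.2). The length used for Fabp4 covers its whole gene, so its level and place are likely understated. The other 26 were all below 20 per kb, from Ly6c1 (17.1), Tek (16.3) and Cdh5 (14.1) through Pecam1 (9.66) to Sox17 (1.50) and Tal1.

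**Figure D1:**
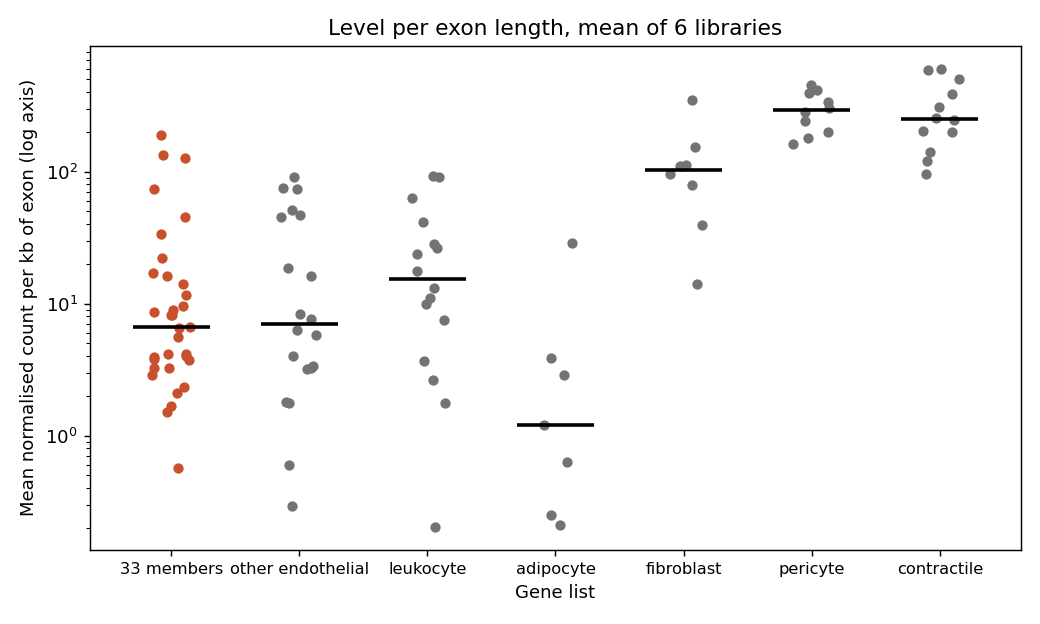
Mean normalised count per kb of exon over 6 libraries (log axis), 1 point a gene, for the 33 endothelial genes and 6 other marker lists, with bars at the medians. The endothelial median of 6.62 lies below the contractile median of 249.4, while Cd36 at 189, Esam at 132 and Aqp1 at 127 lie within the contractile range of 96.3 to 599.

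Per length, Pecam1 was at 1.01% to 2.55% of Myh11, Cdh5 at 1.73% to 3.63% and Tek at 2.34% to 3.65%. Cd36 was at 23.4% to 43.7% of Myh11. Set against Rgs5, the pericyte-enriched regulator of G protein signalling, Cd36 stayed within 40.2% to 44.6% in all 6 libraries and Pecam1 within 1.74% to 2.59%, whereas Aqp1 ranged from 15.5% to 51.7% (this reference gene was chosen after its values were seen). In bulk samples, fewer cells of a type and less RNA per cell cannot be told apart.

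Junction and adhesion genes came first in the list. Values of a gene are given in the order of libraries 1, 2 and 3, controls first. Pecam1 (GRCm38 chr11:106654217-106750628, minus strand) was at 35, 48 and 66 against 43, 70 and 99, which rests on an estimated 46.4 to 75.8 reads a library. KO libraries 2 and 3 were above all controls and KO library 1 was below control libraries 2 and 3, so the groups overlapped. The means were 49.7 ± 15.6 and 70.7 ± 28.01 (SD, n = 3 each), and the log2 fold change of KO against control was 0.47 ± 0.34 (SE; 95% interval -0.33 to 1.27).

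Cdh5, the gene of VE-cadherin, was at 44, 43 and 62 against 49, 78 and 80 (log2 fold change 0.45 ± 0.25, SE). Here too KO libraries 2 and 3 were above every control while KO library 1 lay within the control range. Esam, an immunoglobulin-domain adhesion molecule of endothelial junctions and platelets, was at 328, 374 and 391 against 318, 401 and 465 (log2 fold change 0.10 ± 0.16, SE). Cldn5, the tight junction claudin, and Icam2, a ligand of leukocyte integrins, lay between 1 and 28, and Icam2 had a mean under 10 and was not tested.

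Among the receptors, Tek, the angiopoietin receptor TIE2, was at 63, 65 and 84 against 66, 88 and 94 (log2 fold change 0.22 ± 0.20, SE). Ptprb, the endothelial tyrosine phosphatase that acts on TIE2, was at 70, 96 and 130 against 63, 127 and 210. The lowest and the highest value of Ptprb were thus both in KO libraries. Eng, the TGF-beta co-receptor endoglin, was at 201, 238 and 317 against 209, 409 and 405 (log2 fold change 0.40 ± 0.29, SE).

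Clec14a, a C-type lectin receptor of endothelium, was the 1 tested member in which all 3 KO libraries lay above all 3 controls. It was at 11, 10 and 12 against 13, 16 and 27, on an estimated 9.0 to 19.3 reads a library (log2 fold change 0.65 ± 0.36, SE). That is 1 of 28 tested members, and 2.69% of all tested genes had this order. Cd93, a related receptor also known from myeloid cells, went the other way across library numbers, at 325, 234 and 142 against 268, 202 and 176. Its groups overlapped (log2 fold change -0.060 ± 0.30, SE). The TIE2 relative Tie1, the sphingosine-1-phosphate receptor S1pr1 and the guidance receptor Robo4 lay between 4 and 34 in every library.

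The transcription factors were low throughout. Fli1, an ETS factor that blood cells also use, was at 27 to 48 in controls and at 36 to 50 in KO libraries. Erg, its closer endothelial relative, was at 7 to 17 and at 8 to 21. Of the SOX factors, Sox18 was at 5 to 14 in controls and at 7 to 27 in KO libraries, Sox17 at 3 to 8 and 2 to 14, and Sox7 at 6 to 15 and 4 to 7. Tal1 was at 0 to 2 in controls, with the 0 in control library 3, and at 1 to 6 in KO libraries. Sox7, Sox17 and Tal1 had means under 10 and were not tested.

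Surface sialomucins and secreted proteins differed among themselves. Cd34, a sialomucin of endothelium, fibroblasts and progenitors, was at 131, 196 and 190 against 112, 200 and 143 (log2 fold change -0.20 ± 0.25, SE). Vwf, the von Willebrand factor that binds platelets, was at 32, 58 and 96 against 66, 77 and 57, so the KO values lay inside the control range. Mmrn2, an endothelial matrix protein that binds CLEC14A and CD93, was at 14, 20 and 19 against 17, 30 and 34 (log2 fold change 0.54 ± 0.33, SE). Emcn and Podxl, further sialomucins, were at 4 to 29 and 22 to 108. Podxl was highest, at 108, in KO library 3. Egfl7, a secreted endothelial factor, was at 5 to 30.

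Among transport and capillary surface genes, Cd36 was at 467, 589 and 807 against 550, 688 and 980 (log2 fold change 0.25 ± 0.26, SE). Within each number the KO library was higher, by 83, 99 and 173. The spread over numbers within a group was wider than this, from 467 to 807 in the controls alone. Fabp4, the fatty acid binding protein shared with adipocytes, was at 152, 199 and 237 against 153, 211 and 272. Its differences within a number were 1, 12 and 35. Aqp1, the water channel, was at 440, 334 and 219 against 384, 291 and 335, and control library 3 was the lowest.

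The other capillary genes were low. Gpihbp1, which holds lipoprotein lipase at the capillary wall, lay between 3 and 22, Plvap, the diaphragm protein of fenestrae, between 2 and 22, and the surface antigen gene Ly6c1 between 15 and 54. Reads of Ly6c1 and its close copy Ly6c2 may be hard to tell apart. The intracellular proteins Rasip1, which controls vessel lumen formation through small GTPases, and Ushbp1 lay between 5 and 20. Adipocytes also express Cd36 and Fabp4. Of 7 adipocyte markers 5 were at 0 in at least 1 library (Adipoq, Cidec, Lep, Cfd and Retn). Pparg, a nuclear receptor of adipocytes and endothelium, was at 79, 80 and 73 against 60, 127 and 90, and Plin1, the lipid droplet protein perilipin, at 36, 31 and 9 against 17, 8 and 6. The list summed to 89 to 125 in controls and 80 to 139 in KO libraries. The part of adipocytes in the Cd36 and Fabp4 counts was not tested.

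**Figure D2:**
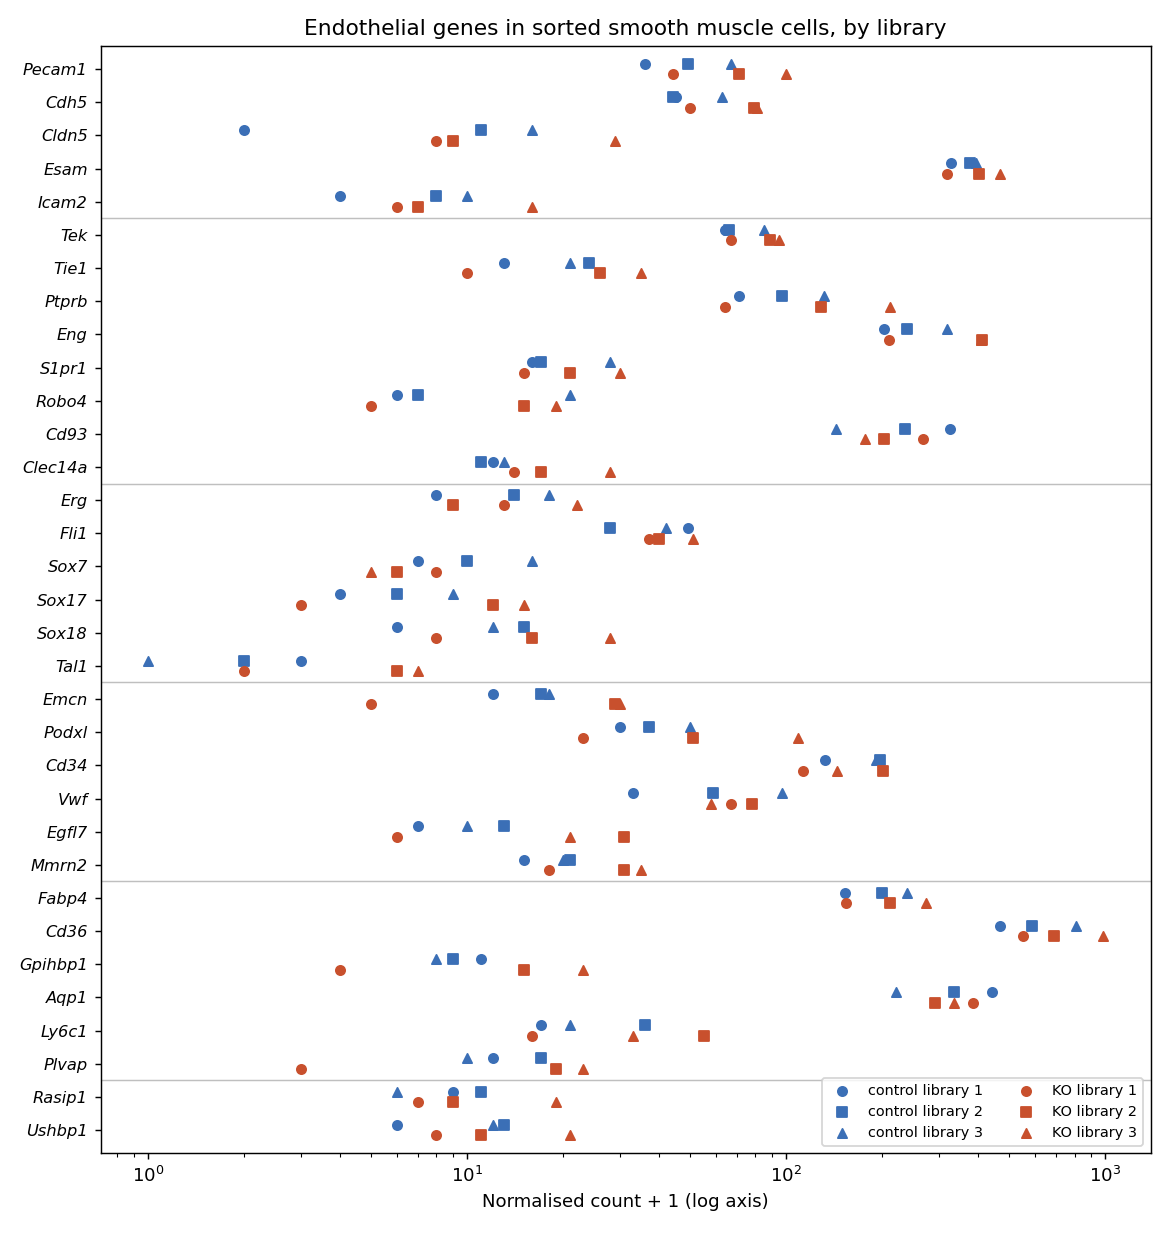
Normalised count + 1 (log axis) of the 33 genes in each of 6 libraries, blue for control and red for KO, with circles, squares and triangles for libraries 1, 2 and 3. The red triangle of KO library 3 is the highest point in 24 of 33 genes, and the circles of libraries numbered 1 are the lowest in 25 (12 in control library 1 and 13 in KO library 1).

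Over all genes with a mean of at least 10, KO library 3 was the highest in 20.5%, control library 1 the lowest in 18.4% and KO library 1 the lowest in 15.4%.

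Of the 33 genes, 29 had a higher KO mean on the log2 scale and 4 (Cd34, Cd93, Plvap and Sox7) a lower one, with a median log2 fold change of 0.27. Without any filter 33.5% of all 32179 genes had a higher KO mean, and the same median over them was -0.14. In control library 3, 7733 genes were at 1, against 2734 to 3867 in the other libraries. The part of these low genes in the unfiltered median was not tested. After the filter (a mean of at least 10 over all libraries) 28 were tested, 25 of them higher, with a median of 0.24, against 50.2% of genes higher and a median of 0.0011 over all 12735 tested. For comparison, 10 of 10 pericyte genes (median 0.19) and 11 of 11 skeletal muscle fibre genes (median 0.25) had a higher KO mean, 11 of 12 contractile genes (median -0.083) and 7 of 8 fibroblast genes (median -0.17) a lower one, and none of them passed. Of the 28, Gpihbp1, Egfl7, Ushbp1 and Cldn5 had a control mean under 10 and passed the filter through the KO libraries, and over the other 24 the median was 0.22. The genes were chosen with results of these data known, so these counts are a description.

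In limma's fit of all 12735 genes none of the 28 passed (the smallest adjusted p was 0.999), and 0% of all genes were called. Of the 28, 0 had an unadjusted p under 0.05, against 1.81% of all genes. With the replicate number as a block 0 of 28 passed (0.00785% of all genes did), and the smallest adjusted p was 0.277, for Cd36. At an unadjusted p under 0.05 there were then 4 of 28, Cd36, Pecam1, Eng and Cdh5, against 10.2% of all genes. The 95% intervals of most genes were wide in the fit without the block. That of Esam, the narrowest, ran from -0.28 to 0.48, and that of Cldn5, the widest, from -1.21 to 2.92.

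**Figure D3:**
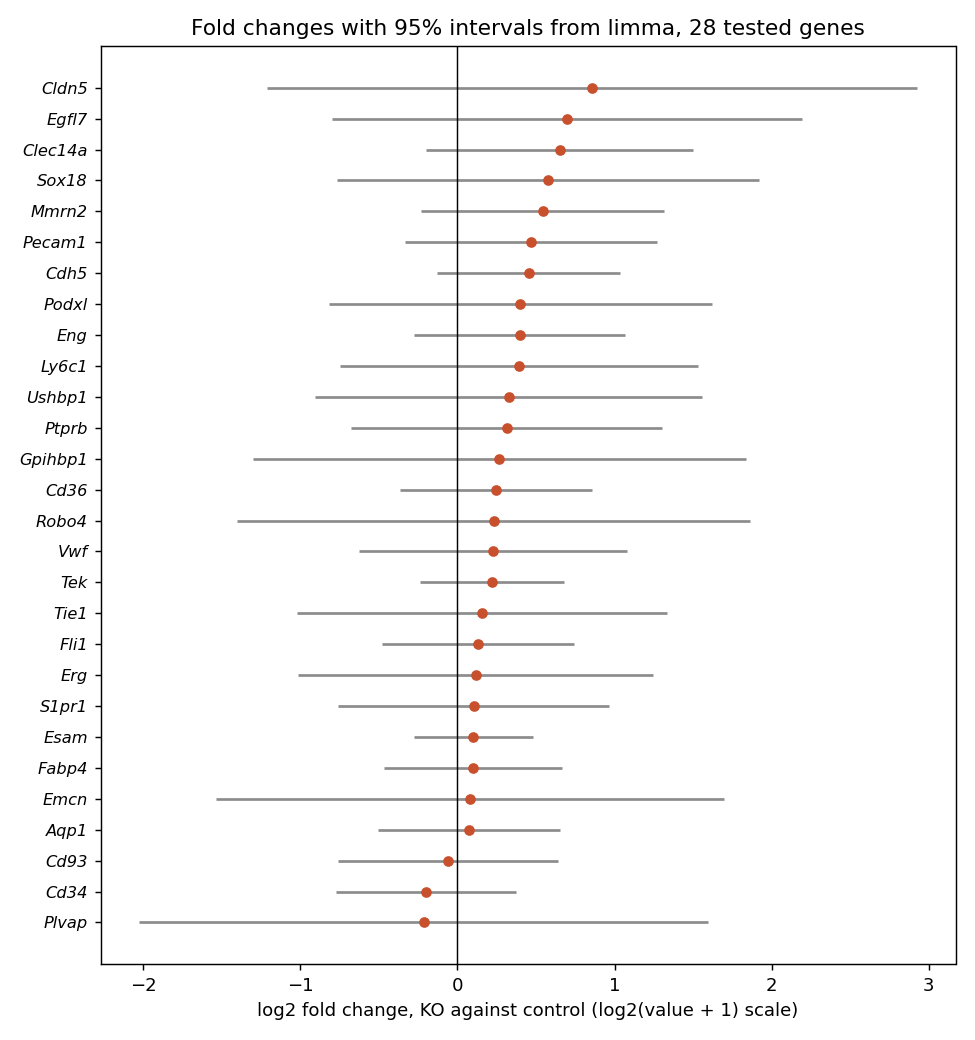
Log2 fold change of KO against control libraries for the 28 tested genes, with 95% intervals from limma without the replicate block on the log2(value + 1) scale. Points lie above 0 for 25 genes, and the interval of each gene includes 0.

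These counts varied with single libraries. Without KO library 3, 14 of 28 were higher and the median was 0.0085, and without control library 1 there were 17 with a median of 0.12. Leaving out control library 3 gave 24 and a median of 0.41, and leaving out KO library 1 gave 25 and a median of 0.70.

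Differences within library numbers were uneven. Between the libraries numbered 1 the KO value was higher for 13 of 28 genes, with a median log2 difference of -0.066, against 43.9% and -0.023 over all tested genes. Between those numbered 2 it was higher for 23, with a median of 0.40, against 48.5% and 0. Between those numbered 3 it was higher for 25, with a median of 0.59, against 51.2% and 0.016. It was higher within all 3 numbers for 9 genes (Pecam1, Cdh5, Tek, Eng, Clec14a, Sox18, Mmrn2, Fabp4 and Cd36), 32.1% of those tested, against 14.0% of all tested genes.

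**Figure D4:**
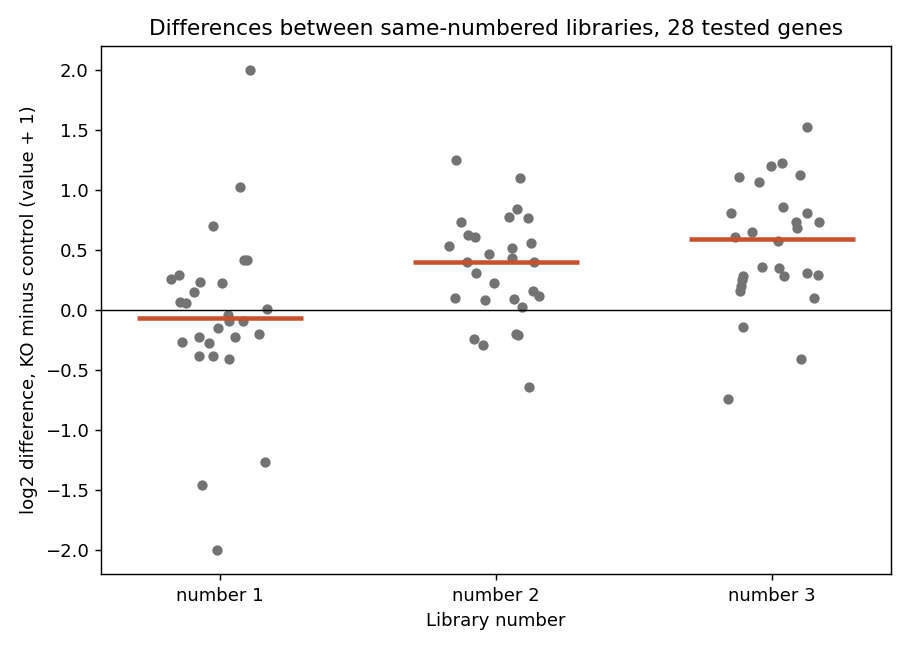
Log2 difference of the KO library from the control library of the same number (value + 1), 1 point a gene for 28 tested genes, with bars at the medians. The medians are -0.066, 0.40 and 0.59 for numbers 1, 2 and 3.

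Levels also differed between library numbers within a group. In 19 of 28 tested genes (67.9%) the library numbered 1 was the lowest of its group in both groups, against 23.4% of all tested genes. Only Aqp1 and Cd93 of the 28 had library 1 highest in both groups, against 27.6% of all tested genes. From library 1 to library 3 the median difference of the 28 was 0.61 on the log2 scale in controls and 1.00 in KO libraries, against -0.041 and 0 over all tested genes. Depth was highest in the libraries numbered 1 and lowest in those numbered 3, so number and depth cannot be told apart.

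Endothelial genes outside the 33 were counted in the same way. Of 20 further genes 17 were tested and 13 were higher in the KO group (median 0.22 on the log2 scale), and 0 passed. In 11 of the 17 the library numbered 1 was the lowest in both groups. Adgrf5, an adhesion receptor of endothelium that pericytes also express, was at 359, 504 and 633 against 441, 1032 and 1022 (log2 fold change 0.67 ± 0.36, SE; limma adjusted p = 0.999, and 0.142 with the block). Heg1, a junction-associated receptor, was at 447, 553 and 535 against 461, 825 and 657, and Ece1, the endothelin-converting enzyme, at 446, 409 and 431 against 446, 524 and 629. All KO libraries lay above all controls for 1 of the 17, against 2.69% of all tested genes. It was the cell-surface protein gene Ecscr, named after its values were seen. Ecscr was at 6, 8 and 9 against 10, 36 and 18 (log2 fold change 1.21 ± 0.50, SE; limma adjusted p = 0.999).

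Genes of vessel types were mixed. Of the arterial list 8 were tested and 4 were higher, with a median of 0.049. Its most abundant members, Jag1 (1097 to 1258), Gja4 (257 to 437) and Efnb2 (130 to 351), are also expressed by arterial smooth muscle. Of the venous list 3 were tested and 2 were higher. Nr2f2, a transcription factor of veins, was at 554 to 804, Ephb4 at 171 to 252 and Vcam1 at 52 to 90. Selp and Sele, the selectin genes of venules, were at 0 to 4. Of the capillary list 6 were tested and 5 were higher, with a median of 0.10. Lpl, for lipoprotein lipase, was at 397 to 601, and Meox2, a transcription factor of muscle capillaries and mesenchyme, at 282 to 381.

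Of the lymphatic list 5 were tested and 4 were lower, with a median of -0.38, and 0 passed. Within numbers 1, 2 and 3 the KO value was higher for 1, 4 and 2 of the 5. Mmrn1 was at 0 in 5 libraries and at 1 in KO library 3. Reln, the gene of reelin, was at 77, 28 and 42 against 65, 34 and 18, with library 1 highest in both groups. Lyve1 was at 35, 15 and 40 against 24, 8 and 20, and Prox1 at 29, 10 and 23 against 22, 12 and 6. Pdpn was at 40, 43 and 29 against 23, 58 and 36. Its log2 fold change was -0.016, while its mean was 37.3 in controls and 39 in KO libraries. Flt4, the VEGF-C receptor, was the 1 higher on the log2 scale, at 11, 12 and 13 against 22, 28 and 22 (log2 fold change 0.94 ± 0.28, SE). Named after its values were seen, it did not pass limma's test (adjusted p = 0.999, and 0.327 with the block).

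Other cell types showed the following sums. Library 1 was the lowest in both groups for 10 of 10 pericyte genes, 8 of 8 fibroblast genes and 10 of 11 skeletal muscle fibre genes, and for 1 of 12 contractile genes. The pericyte genes summed to 10515, 12478 and 16157 against 11186, 14205 and 18700. The 33 endothelial genes summed to 2516, 2780 and 3082 against 2479, 3256 and 3894, the same order of libraries within each group. Without the 8 most abundant members the sums were 402, 520 and 649 against 422, 727 and 908. The 20 further endothelial genes summed to 2466, 2482 and 2756 against 2428, 3846 and 3585, another order among the KO libraries. The 11 skeletal muscle fibre genes summed to 1563 to 3723 in controls and 2204 to 9164 in KO libraries, of which Ttn, the gene of titin, held 422 to 868 and 660 to 5386. Without Ttn the fibre sums were 1141, 2092 and 2855 against 1544, 2989 and 3778, and the ratio of KO to control sums was 1.365, against 2.045 with it. The 8 fibroblast genes summed to 4710 to 6910 and 3967 to 6703, and neither list had a member at 0. The 12 contractile genes summed to 15230 to 16104 in controls and to 13689 to 15618 in KO libraries. The part of pericyte, fibre and fibroblast RNA in the endothelial differences was not tested.

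Blood cell markers took another order. The 16 leukocyte genes summed to 796, 157 and 729 against 565, 164 and 992, lowest in the libraries numbered 2, and Cd52, Cd3e, Cd79a, S100a8 and S100a9 were at 0 in at least 1 library. Pecam1 was at 48 and 70 in control and KO library 2, in which Ptprc, the gene of CD45, was at 1 and 8. Lyz2 was there at 38 and 44, Cd74 at 30 and 27 and Csf1r at 24 and 13. The part of leukocytes in the Pecam1 counts was not tested. Among red blood cell genes, the haemoglobin genes Hba-a1 and Hbb-bs, each with near-identical copies, were at 3, 6 and 3 against 6, 7 and 13 and at 8, 12 and 4 against 7, 6 and 17, highest in KO library 3. Of 6 platelet genes 5 are listed. They summed to 105 to 150 and 91 to 164, most of it Itgb3, which smooth muscle also expresses, with Gp1ba and Ppbp at 0 in at least 1 library.

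**Figure D5:**
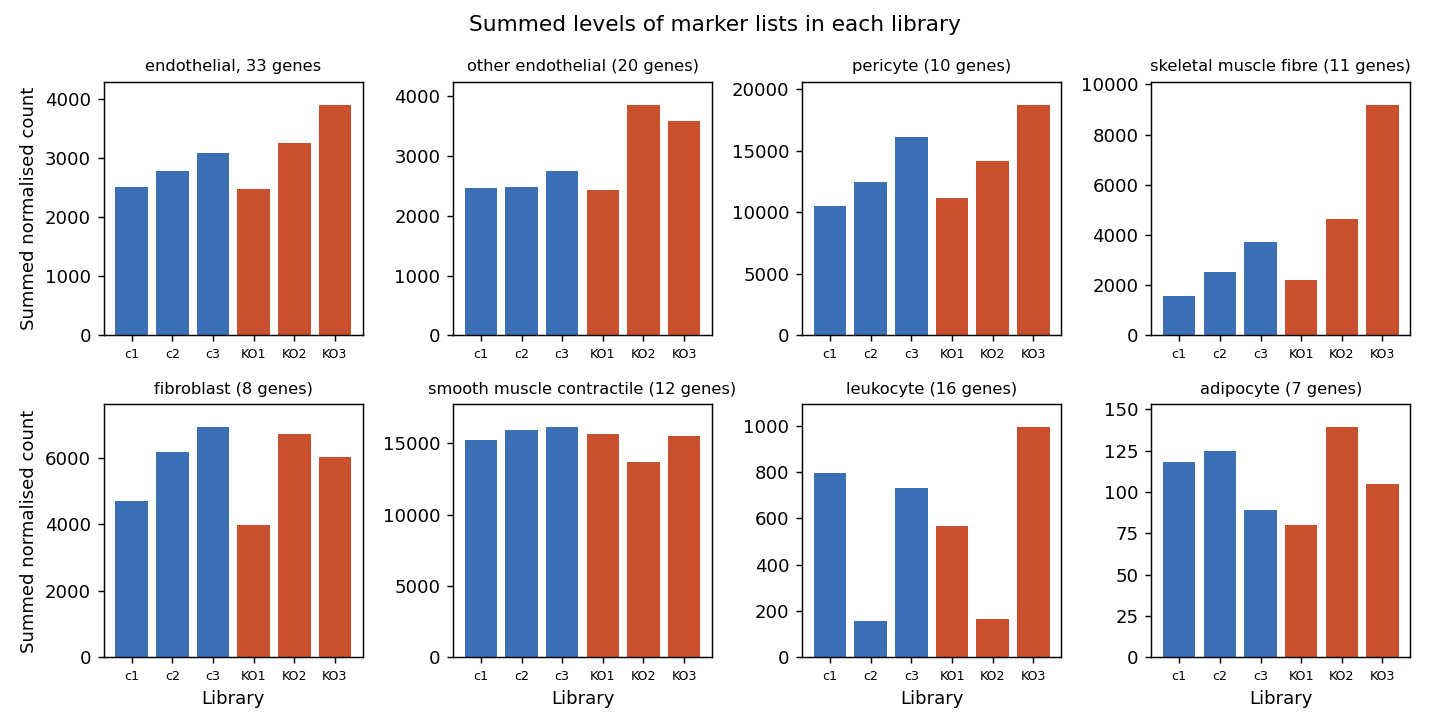
Summed normalised count of 8 marker lists in control libraries 1 to 3 (c1 to c3, blue) and KO libraries 1 to 3 (KO1 to KO3, red), each panel from 0 on its own scale. Sums of the endothelial list described here, of pericyte genes and of skeletal muscle fibre genes have the same order of libraries within each group. Further endothelial genes outside that list have another order in KO libraries, at 2428, 3846 and 3585 in KO1, KO2 and KO3. The leukocyte sum is lowest in c2 and KO2.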

How the data were processed

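The deposited table gives 1 score per gene and library: whole numbers that the authors obtained by scaling read counts library by library and rounding, called normalised counts here. DESeq2 1.18.1, featureCounts 1.6.5, STAR 2.6.1d and Trimmomatic 0.39 are listed, without roles, in the submitters' processing notes, as are the builds GRCm38.p5 and mm10. Whether strand was used is not stated. Exons of Eng, Cd34, Sox17, Egfl7 and Rasip1 overlap those of other genes.

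The worth of 1 read was found from how often each whole number occurs (grid from 0.6 to 2 in steps of 0.0005), and reads were estimated by division. Exon lengths came from GENCODE M21 (GRCm38), matched by gene ID, as the union over all annotated transcripts. Such a union can be longer than the main transcript. For Fabp4 it was 4489 bases, the whole gene from start to end, so its per-kb level is likely understated. For 25 of 33 members the coordinates were the same there; for Cldn5, Icam2, Ptprb, Fli1, Egfl7, Mmrn2, Cd36 and Ushbp1 they were not, so their per-kb levels are less certain. Groups were compared by limma 3.58.1 (R 4.3.3), 2-sided, with log2(value + 1) as input and a trend on mean level, over 12735 genes with a mean of at least 10, Benjamini-Hochberg adjusted, at a threshold of 0.05. Fold changes on this scale understate those of low genes. The fit was also run on simulated counts with large changes in genes with a mean of at least 50 and no effect of library number. That run does not bear on small changes or on lower genes.

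Same-numbered libraries deviated together over genes (correlations 0.59, 0.31 and 0.44 for numbers 1, 2 and 3, above 0.1 each). Control library 3 and KO library 2 were also above 0.1, at 0.16. The number was treated as a pairing in the fits with the replicate block, but not in the main fit. The labels do not explain the numbers, so this rests on the values. Genes and lists were chosen with earlier results of these data known. Per-library values are given for members with a mean of at least 50, for Pecam1 and for the 5 with the smallest p. From other lists mainly the 3 most abundant genes are named. One marker list is not reported here as a whole.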

Additional observations from a re-analysis of the deposited data

How the results depend on the processing

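None of the tested members passed the threshold in any of 18 alternatives. Over all genes the count was 0, and it was 1 with the replicate block, 2 with sample quality weights, 61 with the block but without the pair of libraries numbered 1, and 1 without the pair numbered 2; the cause was not tested. The median log2 fold change of the tested members was 0.0085 to 0.70 when 1 library was left out. The number higher was 14 to 25 of 28 in those fits, and 10 of 12 when a mean of at least 50 was required, where fewer genes were tested. The replicate block kept the median at 0.24 with 25 of 28 higher, and changed no call of a member. Of 14 members given by library, 8 kept their direction in each alternative run, but not their size. Leaving out 1 library gave 0.023 to 0.45 for Cd36, -0.42 to -0.0041 for Cd34, 0.19 to 0.78 for Pecam1, 0.23 to 0.71 for Eng, 0.33 to 0.68 for Cdh5, 0.12 to 0.37 for Tek, 0.37 to 0.87 for Clec14a and 0.35 to 0.83 for Mmrn2. For the other 6 it gave -0.17 to 0.61 for Vwf, -0.025 to 0.25 for Esam, -0.20 to 0.31 for Aqp1, -0.094 to 0.77 for Ptprb, -0.38 to 0.22 for Cd93 and -0.10 to 0.31 for Fabp4. Aqp1 was at -0.070 with sample quality weights. With the replicate block, Aqp1 was at -0.20 without both libraries numbered 3, Vwf at -0.17 and Cd93 at 0.048 without those numbered 1, and Cd93 at 0.015 without those numbered 2; the cause was not tested. The 5 members with a mean under 10 were tested only without the filter.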
